A study of Mus musculus with 5 samples.

Results

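Matrix metalloproteases (MMPs), their tissue inhibitors (TIMPs), the ADAMTS proteases and the ADAMTS-like proteins were followed in GFP-sorted cells of the neonatal mouse lung. The members were all genes of the count table whose symbol is Mmp, Timp, Adamts or Adamtsl followed by a number, which gave 51 of 23478 genes. Of these, 41 passed the filter on low counts, as did 15298 genes of the whole table, and the other 10 are described by their counts. The study asked how loss of Igf1r, the receptor of insulin-like growth factor 1, in Gli1-lineage fibroblasts alters the lung during alveologenesis. RNA-Seq was carried out on 2 control and 3 mutant libraries. Controls were Igf1r Flox/Wildtype and mutants Igf1r Flox/Flox, and both carried Gli1creER and the Rosa-EGFP reporter. The controls were therefore heterozygous for the deletion in the sorted cells and not wild type. All pups received 100 µg of tamoxifen at P0 and again at P1, and GFP+ cells were sorted at P6. Gli1creER labels fibroblasts and myofibroblasts for the most part, with some lipofibroblasts and few pericytes and smooth muscle cells. Mice of both sexes on a mixed background were used. The number of pups behind a library is not given, so that p-values measure the spread between these 5 libraries, which may be partly technical.

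MMPs are zinc proteases that cut collagens, gelatin, elastin and other matrix proteins, and most are secreted as inactive proforms. TIMPs bind their active sites one to one, and TIMP2 also links the membrane protease MMP14 to proMMP2 so that MMP14 can activate it. ADAMTS proteases carry thrombospondin repeats and cleave proteoglycans, procollagens or other matrix proteins, whereas ADAMTS-like proteins share the repeats but have no protease domain and lie on fibrillin microfibrils. In the lung these families remodel the matrix in which the alveolar septa grow.

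The libraries held 35116766 to 37597857 counts, of which the family took 1.24% to 1.32%. A count of 3, taken as the limit that a count of 0 allows, was worth 0.0754 to 0.0864 CPM (counts scaled to a common library total with TMM factors), a limit that covers counting error only. Igf1r was at 324 and 324 CPM in controls 1 and 2 and at 140, 177 and 194 CPM in mutants 1 to 3, with a log2 fold change of -0.93 ± 0.14 (SE) and an adjusted p of 0.354 (edgeR, Benjamini-Hochberg). Markers of the labelled fibroblasts were high, with summed myofibroblast markers (8 of 8 tested) at 4141 and 4360.5 CPM in controls and at 4332.5, 4925 and 4665 CPM in mutants. Summed lipofibroblast markers (6 of 6) were at 5800.0 and 4549.9 CPM in controls and, without overlap, at 4419.9, 3909 and 4485 CPM in mutants. Acta2, the smooth muscle actin of myofibroblasts, was at 407 and 655 CPM in controls and at 764, 1067 and 907 CPM in mutants (DESeq2 adjusted p 0.046, edgeR 0.354). Tcf21, a lipofibroblast transcription factor, was at 1662 and 1168 CPM in controls and at 1003, 902 and 963 CPM in mutants (DESeq2 adjusted p 0.047, edgeR 0.354). Neither list went 1 way as a whole. Of the myofibroblast markers, 5 had a log2 fold change above 0 and 3 below it (Hhip at -0.47, Aspn at -0.23 and Pdgfra at -0.18). Of the lipofibroblast markers, 5 were below 0 and 1, Lpl at 0.23, was above it. No marker was at 0 in either list. RNA of other cells was also present, with summed epithelial markers at 346 to 807 CPM, endothelial markers at 195 to 525 CPM and hematopoietic markers at 227 to 599 CPM. In bulk samples, fewer cells of a type and less RNA per cell cannot be told apart.

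The promoters of the metalloprotease cluster on chromosome 9 differ in their letters from those of the other members that could be compared. Windows of 250 bases before the transcription start, from RefSeq on GRCm38.p6, were matched for 36 of the 51 members, which held 39 windows since 3 genes had a pair of starts. The 15 members without a window included Mmp2, the member with the highest level, as well as Mmp9, Adamts8, Adamts10 and Adamts15, and their promoters were not compared. The AP-1 letters TGAGTCA, searched on both strands and so also found as TGACTCA, stood in 7 of the 39 member windows (17.95%) against 4.463% of all 32851 promoter windows. All 7 genes with them (Mmp1a, Mmp1b, Mmp3, Mmp7, Mmp10, Mmp12 and Mmp13) lie in the metalloprotease cluster of chromosome 9, and the letters stood in the windows of 0 of the 26 members outside the cluster that had a window. The TATA letters TATAAA, searched on the gene's strand, stood in 10 member windows (25.64%) against 7.592% of all windows. Most of these belonged to cluster genes, and those outside the cluster were Adamts1, Adamtsl2 and Mmp21. The GC-box letters GGGCGG, on both strands, stood in 20 (51.28%) against 32.74%, and no window of a cluster gene held them. Every match is a description of letters and not of a bound site. The 130 bases next to the start are shown for 4 genes of the cluster, then for 3 of the most highly expressed members with a window and for Adamtsl2, the member with the largest fold change over all 5 libraries, a rank that rested on control 1 (log2 fold change -1.56, and -0.26 without it). Each runs 5′ to 3′ on the gene's strand up to the base before the start, and capitals mark the TATA letters, the AP-1 letters on either strand and the GC-box letters.
Mmp1a (chr9:7464011-7464140, plus strand): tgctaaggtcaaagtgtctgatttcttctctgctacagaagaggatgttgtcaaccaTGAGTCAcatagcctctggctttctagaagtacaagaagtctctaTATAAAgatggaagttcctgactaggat
Mmp3 (chr9:7445692-7445821, plus strand): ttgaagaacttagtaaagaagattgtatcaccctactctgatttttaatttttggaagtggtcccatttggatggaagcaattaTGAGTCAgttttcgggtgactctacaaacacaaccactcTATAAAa
Mmp10 (chr9:7502212-7502341, plus strand): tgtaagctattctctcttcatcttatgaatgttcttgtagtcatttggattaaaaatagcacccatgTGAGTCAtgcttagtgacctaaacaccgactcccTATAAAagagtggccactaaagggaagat
Mmp13 (chr9:7272384-7272513, plus strand): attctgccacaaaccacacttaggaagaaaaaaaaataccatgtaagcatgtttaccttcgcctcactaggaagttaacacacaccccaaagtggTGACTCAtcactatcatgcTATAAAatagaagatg
Mmp14 (chr14:54431468-54431597, plus strand): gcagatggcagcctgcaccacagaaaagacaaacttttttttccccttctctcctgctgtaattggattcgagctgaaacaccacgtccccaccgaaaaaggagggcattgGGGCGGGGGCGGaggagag
Timp2 (chr11:118355412-118355541, minus strand): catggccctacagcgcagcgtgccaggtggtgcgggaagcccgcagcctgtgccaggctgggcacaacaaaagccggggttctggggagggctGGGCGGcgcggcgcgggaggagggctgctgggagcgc
Adamts1 (chr16:85803114-85803243, minus strand): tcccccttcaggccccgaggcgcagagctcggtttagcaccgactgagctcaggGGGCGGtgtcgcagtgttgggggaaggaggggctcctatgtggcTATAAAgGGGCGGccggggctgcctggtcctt
Adamtsl2 (chr2:27079249-27079378, plus strand): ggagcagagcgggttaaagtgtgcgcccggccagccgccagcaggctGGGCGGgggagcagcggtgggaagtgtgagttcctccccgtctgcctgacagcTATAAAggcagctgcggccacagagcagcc
In the 4 cluster promoters the AP-1 letters began 35 to 73 bases before the start and the TATA letters 7 to 29 bases before it. Mmp14 and Timp2 held GGGCGG and neither of the other motifs in their windows. The Timp2 window lies inside the gene as GENCODE M21 gives it (chr11:118301069-118355740). It stands before the RefSeq start but after the GENCODE start. Adamts1 and Adamtsl2 had both TATAAA, 32 and 30 bases before the start, and GGGCGG. The windows of the cluster genes were also poorer in G and C, from 37.2% to 53.2% over 250 bases, than those of the other members, from 53.6% to 80%.

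Of the family's RNA per length, a few members made up most. On the scale of CPM per kb of exon, which allows genes to be compared, Mmp2 stood at 890.3 and ranked 19 of 15164 tested genes with a length, with 34.3% of the summed family level. Timp2 followed at 485 (rank 50), Adamts1 at 378 (rank 72) and Mmp14 at 171 (rank 173). These 4 genes held 74.2% of the family level, and 9 genes held 91.3%, with Adamts2 at 125, Adamts17 at 109, Timp3 at 93.2, Adamts8 at 70.8 and Mmp11 at 46.3. The proMMP2 activation set of Mmp2, Mmp14 and Timp2 was thus the most abundant part of the MMP and TIMP families in these cells.

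**Figure D1:**
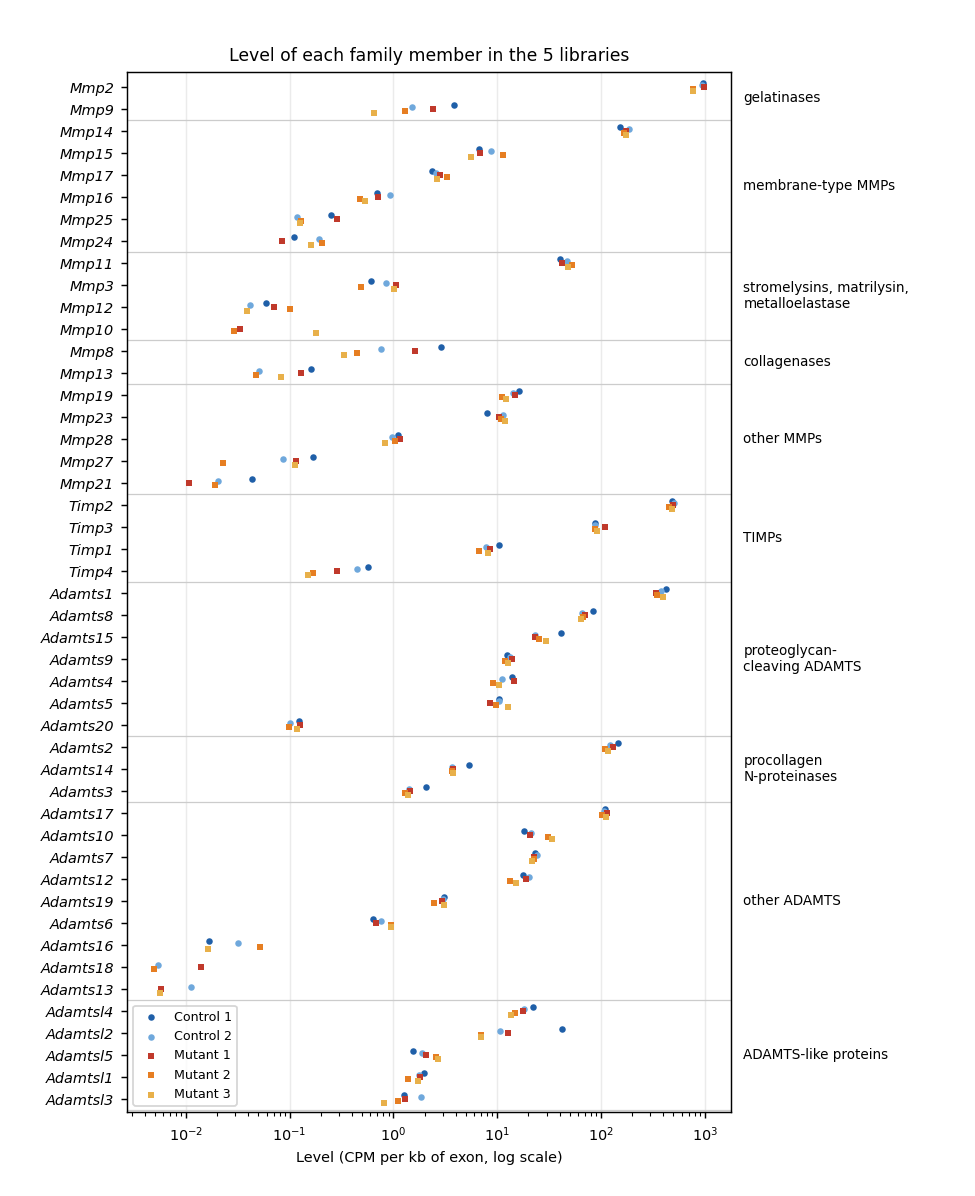
Level of each family member in each library, in CPM per kb of exon on a log axis, grouped by role. Circles are the 2 control and squares the 3 mutant libraries, and libraries with 0 counts for a gene and the 4 genes with 0 counts throughout are not drawn. Mmp2, Timp2, Adamts1 and Mmp14 lie furthest to the right, and the libraries of a gene mostly lie closer together than the genes do.

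At the other end, Mmp1a, Mmp1b, Mmp7 and Mmp20 had 0 counts in every library. The first pair were grouped here with the collagenases, Mmp7 is the epithelial matrilysin and Mmp20 the enamel protease. Mmp21, Mmp27, Adamts13, Adamts16 and Adamts18 had 0 to 14 counts per library and were not tested. Mmp10, a stromelysin, had 0 and 0 counts in the controls and 2, 2 and 11 in the mutants, and was not tested either. Adamts13, the protease of von Willebrand factor, had at most 2 counts.

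The metalloprotease cluster of chromosome 9 holds 10 of the members between 7272514 and 7699585 (mm10), a span of 427.1 kb. Its summed level was 9.33 and 4.01 CPM in controls and 7.03, 2.92 and 3.70 CPM in mutants, so that the genotypes overlapped. Mmp8 reached the highest value of any gene and library in the cluster, 7.0 CPM in control 1, and its window held neither the AP-1 nor the TATA letters. Mmp3 was at 0.880 to 1.93 CPM, Mmp12 at 0.278 to 0.729 CPM and Mmp13 at 0.126 to 0.432 CPM. Per kb of exon Mmp3 stood above Mmp8 in 3 of 5 libraries, at 0.848 against 0.765 in control 2, 0.489 against 0.446 in mutant 2 and 1.02 against 0.333 in mutant 3. Mmp3 and Mmp10 share sequence, with 14.6% of the 31-base words in the exons of Mmp3 found in other genes, so that counts of close copies are uncertain.

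**Figure D2:**
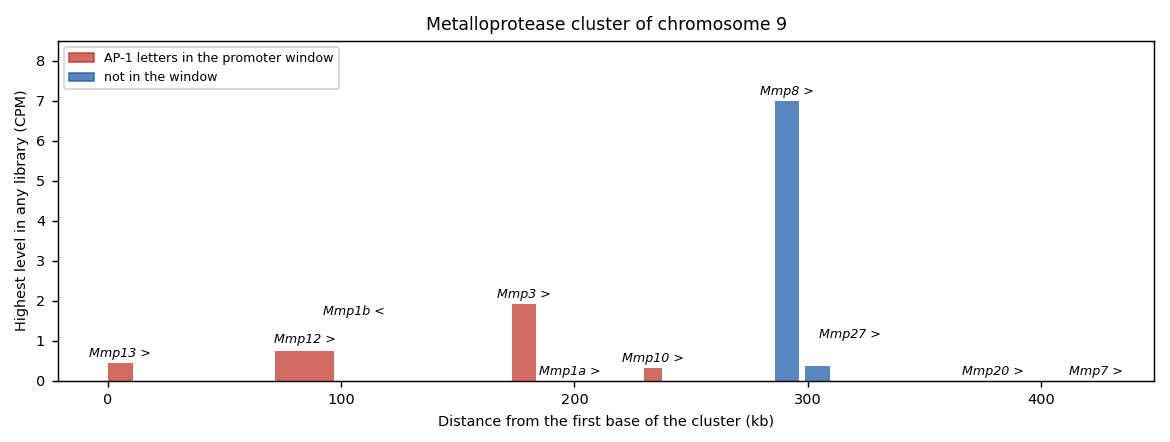
The 10 genes of the cluster by distance from its first base in kb, with the highest level in any library in CPM as the height of each bar and the gene's span as its width. Arrowheads give the strand, the 4 names without a bar (Mmp1a, Mmp1b, Mmp7 and Mmp20) had 0 counts, and red bars mark genes with the AP-1 letters in a promoter window. Mmp8 reaches 7.0 CPM in control 1. The genes with the letters stay at or under 1.93 CPM, and so do Mmp27 (at most 0.374 CPM) and Mmp20, which lack them.

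Between genotypes, no member passed the test. With edgeR's quasi-likelihood test and Benjamini-Hochberg adjustment over all 15298 genes, 0 of 41 members had an adjusted p under 0.05, where the background was 0% of all genes, and the lowest adjusted p of a member was 0.354. DESeq2 also gave 0 members, against 0.941% of all genes lower and 0.366% higher. These shares are of all 15298 genes, 3563 of which had no DESeq2 adjusted p and could not be called. Among them were the members Timp4, Adamts20, Mmp3, Mmp8, Mmp12, Mmp13, Mmp24 and Mmp25, so that the DESeq2 count does not cover these members. At an unadjusted p under 0.05, 5 members (12.2%) differed against 12.4% of all genes, a share close to the background. Lower in mutants were Adamtsl2, Adamtsl4 and Timp4, 3 members against 6.75% of all genes, and higher were Adamts10 and Adamtsl5, 2 members against 5.65%. Of these 5, all but Adamtsl4 also met a criterion of the form used in the study (absolute log2 fold change of at least 0.5, unadjusted p under 0.05 and a level over 1, here in CPM where the study used FPKM), 4 members (9.76%) against 5.83% of all genes. Adamtsl2 and Timp4 met it as lower (background 3.67%) and Adamts10 and Adamtsl5 as higher (background 2.16%). With FPKM from exon lengths in place of CPM, 3 members met it and Timp4 did not. The genotypes did not overlap for 6 members (14.6%), which is below the 31.0% of all genes. These were Adamts7, Adamtsl4 and Timp4, lower (background 14.9%), and Adamtsl5, Mmp17 and Timp3, higher (background 16.0%). The counts at the unadjusted threshold hung on single libraries. The number lower was 1 without control 1, 8 without control 2, 11 without mutant 1, and 1 without mutant 2 or mutant 3, and the number higher was 0 without control 1, mutant 2 or mutant 3. The number that met the criterion was 8 without control 2, 9 without mutant 1 and 1 without any of the other 3 libraries.

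The differences were small and leaned to lower levels in mutants. The log2 fold change was below 0 for 28 members (68.3%) against 47.7% of all genes, and its median was -0.09 against 0.01. Under library totals in place of TMM factors, 53.7% of members and 37.3% of all genes were lower, and without control 1 the shares were 55.8% and 47.5%. The summed lipofibroblast markers given above were also lower in every mutant, but only 1 of the 6 markers, Tcf21, had no overlap between genotypes. The median log2 fold change of that list was -0.25. Medians were also below 0 for endothelial (-0.17), mesothelial (-0.29), epithelial (-0.40), chondrocyte (-0.42), hematopoietic (-0.75), macrophage (-0.82) and neutrophil (-1.265) markers. They were above 0 for myofibroblast (0.28) and pericyte (0.01) markers. The part of any of these cells in the split of signs was not tested. The median size of the difference, regardless of sign, was 0.18 for the members and 0.19 for all genes.

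**Figure D3:**
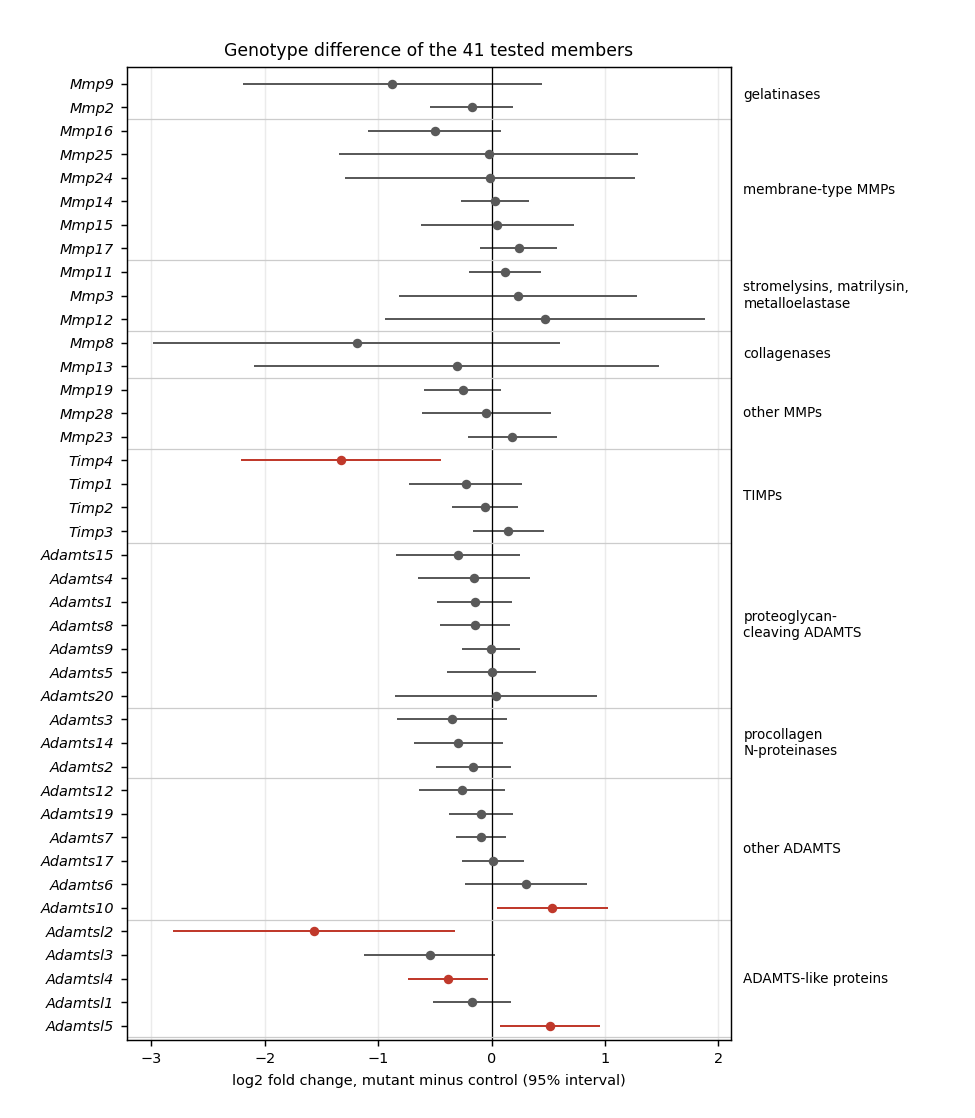
Log2 fold change, mutant minus control, of the 41 tested members with its 95% interval, grouped by role and sorted within it. Red marks the 5 members with an unadjusted p under 0.05, and none passes after adjustment. The intervals of the other 36 include 0, and the widest are those of Mmp8, Mmp13 and Mmp12, which are at low levels.

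The gelatinase Mmp2, which cuts denatured collagen and basement membrane collagen, was the largest member by level. The gene (chr8:92827291-92853420, plus strand, mm10) was at 3271 and 3180.3 CPM in controls and at 3309, 2619.7 and 2626 CPM in mutants. Mutant 1 lay above both controls and the other mutants lay below them, so that the genotypes overlapped. This gave a log2 fold change of -0.18 ± 0.15 (SE), with a 95% interval from -0.54 to 0.18 and an adjusted p of 0.646 (edgeR).

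Mmp14, the membrane-anchored activator of proMMP2, was at 915 and 1101 CPM in controls and at 1043, 1004 and 1036 CPM in mutants, all 3 mutants between the controls. The difference in log2 of 0.03 ± 0.12 (SE) had an interval from -0.26 to 0.32 (edgeR adjusted p 0.939). Timp2, the inhibitor that joins MMP14 to proMMP2, was at 1890.2 and 1986 CPM in controls and at 1930.2, 1761 and 1888 CPM in mutants. Its log2 fold change was -0.06 ± 0.12 (SE), from -0.34 to 0.22 (edgeR adjusted p 0.849), and 0.01 with library totals. For Mmp14 and Timp2 these intervals leave out any difference as large as that of Igf1r itself.

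Of the other membrane-type MMPs, Mmp17, a GPI-anchored protease, was at 15.7 and 16.9 CPM in controls and at 18.5, 21.9 and 17.3 CPM in mutants. The genotypes did not overlap, although mutant 3 lay close to control 2, and the log2 fold change was 0.24 ± 0.14 (SE; edgeR adjusted p 0.503). Mmp16 had a log2 fold change of -0.50 with an interval from -1.08 to 0.07. Mmp24 and Mmp25 stayed at 0.397 to 1.53 CPM. Mmp11, a stromelysin activated by furin within the cell, was the leading member of its role at 113 and 132 CPM in controls and 116, 148 and 134 CPM in mutants, with overlap and a log2 fold change of 0.12 ± 0.13 (SE; edgeR adjusted p 0.722). Mmp19, a protease of basement membrane proteins, was at 57.3 and 50.5 CPM in controls and at 52.6, 39.8 and 43.1 CPM in mutants, and mutant 1 lay between the controls. The fold change of Mmp19 was -0.26 ± 0.14 in log2 (SE; edgeR adjusted p 0.475). Mmp23 and Mmp28 had log2 fold changes of 0.18 and -0.05, and the low Mmp3 and Mmp12 had 0.23 and 0.47 with intervals that spanned 0. In the annotation 28.3% of the Mmp19 exon bases overlap genes on the other strand, from which they cannot be told apart unless reads were counted by strand, a setting not given in the sources used here.

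Timp4 showed the largest difference among the inhibitors at a low level. The gene (chr6:115241892-115252205, minus strand, mm10) was at 3.34 and 2.65 CPM in controls (116 and 97 counts) and at 1.70, 0.981 and 0.891 CPM in the mutants (60, 39 and 32 counts). The genotypes did not overlap, with every mutant below both controls. The log2 fold change was -1.33 ± 0.37 (SE), with an interval from -2.20 to -0.46 and an adjusted p of 0.354 (edgeR). The adjusted p ranged from 0.328 to 0.365 over the alternative settings with all libraries and no block that gave one, and DESeq2 gave none. It was 0.207 in edgeR with the replicate number as a block, where mutant 3 has its own number and adds nothing to the genotype difference. The log2 fold change stayed between -1.68 and -1.16 when 1 library at a time was left out.

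Timp3, the TIMP that binds to the matrix and inhibits ADAMTS proteases as well as MMPs, was at 711 and 716 CPM in controls and at 896, 721 and 752 CPM in mutants. All mutants lay above the controls, mutant 2 by little. This was a log2 fold change of 0.15 ± 0.13 (SE; edgeR adjusted p 0.654). Some 21.3% of its exon bases overlap Syn3 on the other strand. Timp1 was at 9.27 and 6.88 CPM in controls and at 5.88 to 7.59 CPM in mutants.

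Summed over the members, the TIMP level was 0.998 times that of the controls and the MMP level 0.922 times. The ratio of summed TIMP to summed MMP levels in CPM was 0.586 and 0.592 in controls and 0.613, 0.632 and 0.674 in mutants, without overlap, which is 1.09 times higher. Per kb of exon the ratio was 0.483 and 0.497 in controls and 0.495, 0.526 and 0.564 in mutants, and the genotypes then overlapped. Mmp2 made up most of the MMP sum and was lowest in mutants 2 and 3, where the ratio was highest. The ratio concerns RNA and not the proteins or their activity.

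The proteoglycan-cleaving ADAMTS genes, whose products cut versican and aggrecan, held 7 tested members, 6 of them with a log2 fold change below 0 and none with an unadjusted p under 0.05. Adamts1 led them at 2257 and 2006 CPM in controls and 1807, 1836 and 2120.0 CPM in mutants, with mutant 3 between the controls. Mutants differed by -0.15 ± 0.14 (SE) in log2 fold change, from -0.47 to 0.17 (edgeR adjusted p 0.663). Adamts15 was at 424 and 239 CPM in controls and at 242, 264 and 304 CPM in mutants, where control 1 stood apart and control 2 was the lowest library. Its log2 fold change of -0.29 ± 0.23 (SE; edgeR adjusted p 0.611) turned to 0.17 without control 1. Adamts8, a relative of Adamts15 that lies close to it on chromosome 9, was at 389 CPM in control 1 and at 298 to 328 CPM in the other 4 libraries. Of the exon bases of Adamts8 and Adamts9, 10.6% and 12% overlap genes on the other strand. Adamts4, Adamts5, Adamts9 and Adamts20 had log2 fold changes from -0.15 to 0.04.

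The procollagen N-proteinases, which remove the amino-terminal propeptide of fibrillar procollagens, held 3 members, each with a log2 fold change below 0 that rested on control 1. Adamts2, the most abundant of the 3, was at 1364 and 1137 CPM in controls and at 1225, 1029 and 1099.9 CPM in mutants, and mutant 1 lay between the controls. On the log2 scale the fold change was -0.16 ± 0.14 (SE), from -0.48 to 0.16 (edgeR adjusted p 0.643). Adamts14 had a log2 fold change of -0.29 and Adamts3 of -0.35, both with control 1 as the highest library at 28.1 and 11.3 CPM. None of the 3 had an unadjusted p under 0.05, and without control 1 the log2 fold changes of Adamts2, Adamts14 and Adamts3 were -0.030, 0.00047 and -0.047.

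Adamts10 and Adamts17 encode fibrillin-associated proteases, and both genes are mutated in forms of the human Weill-Marchesani disorders. Adamts10 (chr17:33524204-33553782, plus strand, mm10) was at 151 and 175 CPM in controls and at 173, 254 and 282 CPM in mutants. Mutant 1 lay just below control 2, so that the genotypes overlapped. Adamts10 had a log2 fold change of 0.53 ± 0.20 (SE), from 0.05 to 1.02, with an unadjusted p of 0.034 and an adjusted p of 0.379 (edgeR; 0.194 to 0.40 over the alternative settings with all libraries). Adamts17, at 850.2 and 840.1 CPM in controls and at 894, 794 and 869.9 CPM in mutants, overlapped between genotypes and gave a log2 fold change of 0.01 ± 0.11 (SE; edgeR adjusted p 0.971). Adamts6, the closest relative of Adamts10, was at 4.92 and 5.89 CPM in controls and 5.27, 7.47 and 7.32 CPM in mutants (log2 fold change 0.31 ± 0.23 SE). As with Adamts10, mutant 1 lay between the controls and mutants 2 and 3 above both.

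Adamts7 and Adamts12, proteases of cartilage oligomeric matrix protein, were both below 0. Adamts7 was at 145 and 153 CPM in controls and at 141, 141 and 137 CPM in mutants, without overlap but with a log2 fold change of only -0.09 ± 0.09 (SE; edgeR adjusted p 0.683). Adamts12 had a log2 fold change of -0.26, from -0.64 to 0.11, and Adamts19, an orphan protease of the family, one of -0.09.

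The ADAMTS-like genes held 3 of the 5 members with an unadjusted p under 0.05, in opposite directions. Adamtsl2 binds fibrillin and the latent TGF-beta binding protein LTBP1. Its gene (chr2:27079379-27108981, plus strand, mm10) was at 336 and 84.5 CPM in controls and at 103, 55.5 and 55.3 CPM in mutants. Control 1 was the highest library by far, and control 2 lay below mutant 1, so that the genotypes overlapped. Over all 5 libraries the log2 fold change was -1.56 ± 0.53 (SE), from -2.80 to -0.33, with an unadjusted p of 0.020 and an adjusted p of 0.354 (edgeR). The adjusted p was 0.296 to 0.432 over the alternative settings with all libraries and no block. It was 0.053 in edgeR with the replicate number as a block, where mutant 3 has its own number and adds nothing to the genotype difference. The log2 fold change was -0.26 without control 1 and -2.25 without control 2.

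Adamtsl4 (chr3:95676201-95687917, minus strand, mm10), a microfibril-associated protein, was at 93.1 and 75.8 CPM in controls and at 74.7, 62.0 and 57.0 CPM in mutants. All mutants lay below both controls, mutant 1 by little. Its fold change on the log2 scale was -0.39 ± 0.15 (SE), from -0.73 to -0.04 (unadjusted p 0.032, adjusted p 0.376, edgeR; adjusted p 0.232 to 0.385 over the alternative settings with all libraries). Adamtsl5 (chr10:80339110-80348412, minus strand, mm10), another fibrillin-binding protein, showed the opposite order at a lower level, with 7.29 and 8.87 CPM in controls and 9.72, 12.2 and 12.7 CPM in mutants. Every mutant lay above both controls, and the log2 fold change was 0.51 ± 0.18 (SE), from 0.08 to 0.95 (unadjusted p 0.026, adjusted p 0.364, edgeR; adjusted p 0.219 to 0.371 over the alternative settings with all libraries). Adamtsl3 was at 9.88 and 14.3 CPM in controls and at 9.92, 8.58 and 6.29 CPM in mutants (log2 fold change -0.55 ± 0.24 SE, edgeR adjusted p 0.409). Adamtsl1 had a log2 fold change of -0.18, from -0.51 to 0.16. The summed ADAMTS-like level was 0.521 times that of the controls and 0.857 times without control 1, and Adamtsl2 made up 336 of the 471 CPM summed in that library.

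**Figure D4:**
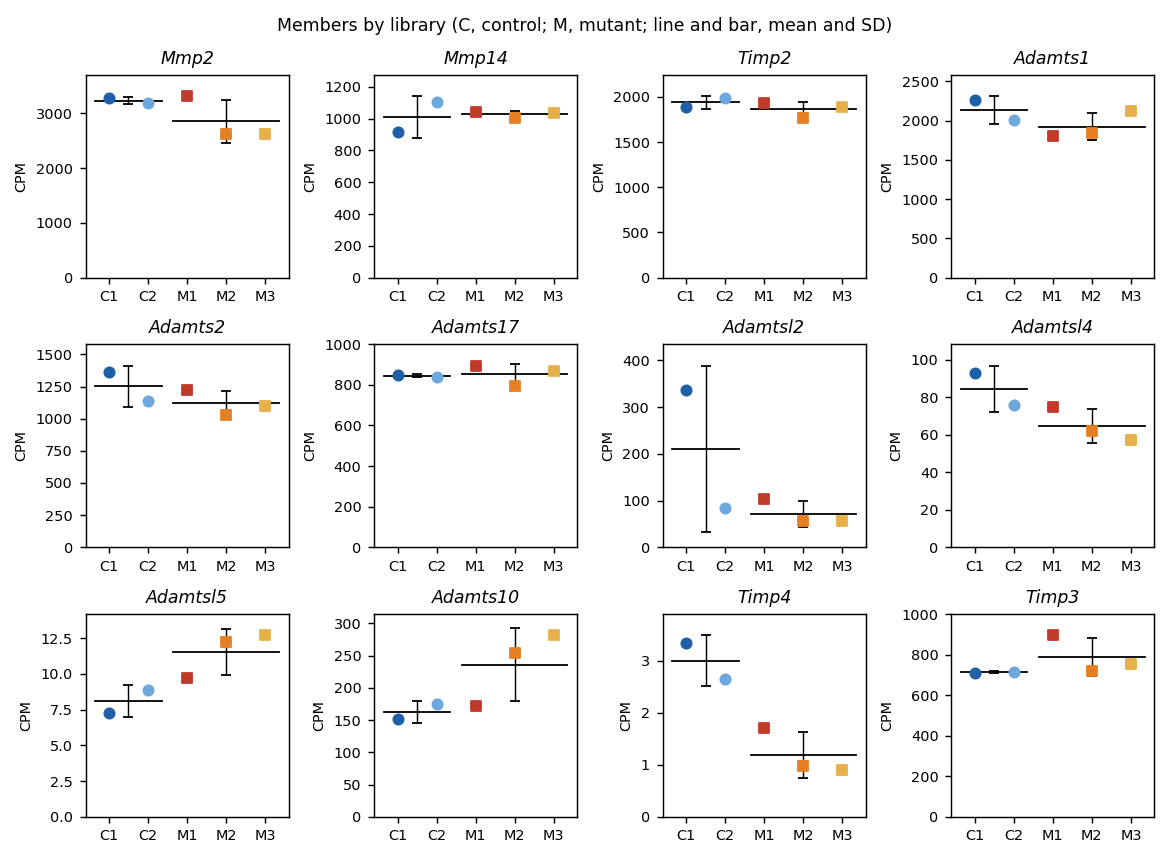
Level in CPM (vertical axis from 0) of 12 members in control libraries C1 and C2 and mutant libraries M1 to M3, with the mean of each genotype as a line and its SD as a bar. Mmp2, Mmp14, Timp2, Adamts1, Adamts2 and Adamts17 overlap between genotypes. Control 1 of Adamtsl2 stands apart at 336 CPM, whereas Timp4, Adamtsl4, Adamtsl5 and Timp3 do not overlap.

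Several members at low levels shared all or part of their order of libraries with markers of other cell types. Mmp8, the collagenase of neutrophil granules, was at 7.0 and 1.86 CPM in controls and at 3.94, 1.08 and 0.807 CPM in mutants. Mmp9, the gelatinase that neutrophils also store, was at 13.5 and 5.32 CPM in controls and at 8.59, 4.55 and 2.28 CPM in mutants. The 5 of 6 neutrophil markers in the table (S100a8, S100a9, Cxcr2, Retnlg and Camp) summed to 183 and 51.5 CPM in controls and to 103, 24.1 and 21.5 CPM in mutants. All 3 measures put the libraries in the same order, with control 1 highest, then mutant 1, control 2, mutant 2 and mutant 3. This order was not particular to neutrophils, since Adamtsl2 and the summed macrophage, hematopoietic and chondrocyte markers had it too. Of the single neutrophil markers, S100a8 and Retnlg kept the order, and S100a9, Cxcr2 and Camp departed from it. None of the 5 markers was at 0 in any library. The log2 fold change was -1.19 ± 0.76 (SE) for Mmp8 and -0.87 ± 0.56 (SE) for Mmp9 (edgeR adjusted p 0.530 and 0.529). Without control 1 these were 0.06 and -0.06. The part of the neutrophil RNA in these values was not tested.

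Mmp15, a membrane-type MMP, was at 36.3 and 46.6 CPM in controls and at 36.9, 61.4 and 30.5 CPM in mutants. Summed endothelial markers (6 of 6 tested) were at 395 and 395 CPM in controls and at 358, 525 and 195 CPM in mutants, and summed epithelial markers (8 of 8) at 796 and 778 CPM in controls and at 567, 807 and 346 CPM in mutants. Mutant 2 was highest and mutant 3 lowest in all 3, and the other libraries did not share 1 order. Mmp15 was higher in control 2 than in control 1, whereas each sum was nearly equal in the controls. The epithelial sum of mutant 2 was also close to that of control 1. The log2 fold change of Mmp15 was 0.05 ± 0.28 (SE; edgeR adjusted p 0.952), and it was -0.12 without control 1 and -0.30 without mutant 2. Mmp13, the collagenase of hypertrophic cartilage, had 15 and 5 counts in controls and 12, 5 and 8 in mutants, beside summed chondrocyte markers of 40.3 and 15.5 CPM in controls and 39.9, 15.1 and 8.74 CPM in mutants. Of the 6 chondrocyte markers 4 were tested, Matn1 was at 0 in 4 libraries, and control 1 and mutant 1 were highest in both measures. The part of these cells in the values of Mmp15 and Mmp13 was not tested.

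**Figure D5:**
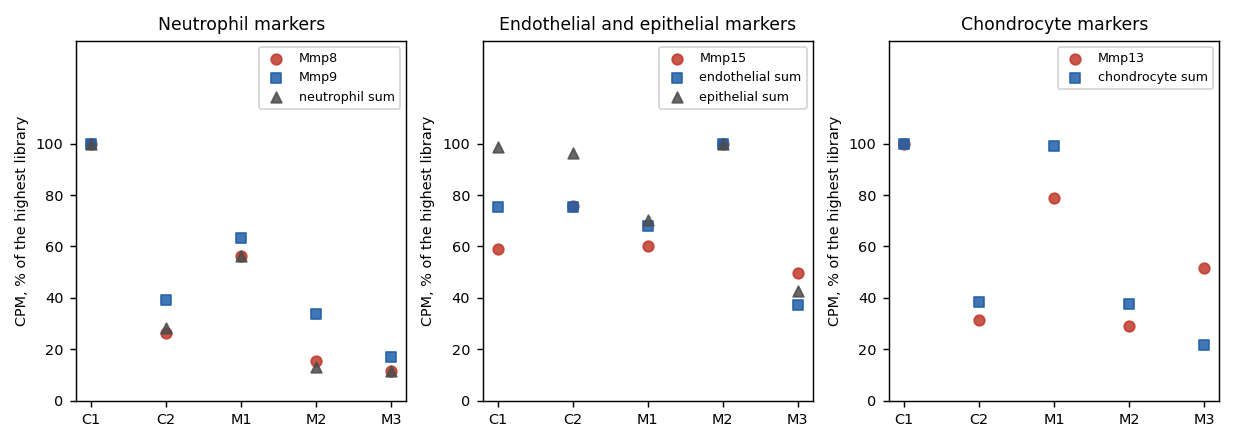
Level of Mmp8, Mmp9, Mmp15 and Mmp13 in each library as a percentage of the highest library, beside the summed CPM of the neutrophil, endothelial, epithelial and chondrocyte marker lists on the same scale. Mmp8, Mmp9 and the neutrophil sum share 1 order of the libraries, which the chondrocyte sum also has. Mmp15 is highest in mutant 2 and lowest in mutant 3, as are the endothelial and epithelial sums, while the order of the other libraries differs.

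Among the activators, cofactors, inhibitors and clearance receptors of these proteases, 28 of 31 genes were tested, and none passed with edgeR. Of the 28, 23 had a log2 fold change below 0, against 47.7% of all genes. At an unadjusted p under 0.05, 5 of the 28 were lower (background 6.75%) and 1 was higher (background 5.65%). DESeq2 called 2, both lower, against 0.941% of all genes. The number of partner genes at that threshold, 6 with all libraries, was 3 without control 1, 10 without control 2, 15 without mutant 1, 3 without mutant 2 and 2 without mutant 3. Lrp1, the endocytic receptor that clears MMPs, ADAMTS proteases and TIMPs, was at 2989 and 2551 CPM in controls and at 2203, 1638 and 1627 CPM in mutants, with no overlap. Its log2 fold change was -0.60 ± 0.18 (SE), with an adjusted p of 0.354 by edgeR and 0.038 by DESeq2. Thbs1, thrombospondin 1, a ligand of Lrp1 that also binds MMP2, was at 7193 and 6062 CPM in controls and at 4876, 2622 and 3103 CPM in mutants. With a log2 fold change of -0.91 ± 0.26 (SE), it had an adjusted p of 0.354 by edgeR and 0.029 by DESeq2.

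Sfrp1, a Wnt inhibitor that also inhibits ADAM10, resembled Adamtsl2 in its libraries. It was at 335 and 103 CPM in controls and at 122, 70.0 and 78.4 CPM in mutants, with control 1 far above the rest (log2 fold change -1.28 ± 0.45 SE, edgeR adjusted p 0.364). Ctss, the lysosomal cysteine protease cathepsin S of macrophages, had a log2 fold change of -1.06 ± 0.44 (SE), beside summed macrophage markers of 119 and 56.0 CPM in controls and 74.4, 44.5 and 32.1 CPM in mutants (5 of 6 markers tested). The part of macrophage RNA in this value was not tested. Thsd4, which encodes ADAMTSL6 under a symbol outside the rule, was at 38 and 44.4 CPM in controls and at 51.3, 57.5 and 54.5 CPM in mutants. As for Adamtsl5, every mutant lay above both controls, and the log2 fold change was 0.40 ± 0.11 (SE; edgeR adjusted p 0.354).

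The ADAM proteases, membrane-anchored relatives of the ADAMTS family, held 10 tested genes of 11, with 4 below 0 and none at an unadjusted p under 0.05 (background 12.4%). Among 22 substrates of the family, 20 were tested, 18 of them had a log2 fold change below 0, against 47.7% of all genes, and the median was -0.24. Of the 20 tested, 1 was lower at an unadjusted p under 0.05 (background 6.75%) and 0 were higher (background 5.65%). The list thus held no excess at that threshold, although its signs leaned to lower levels in mutants. The 1 was Fbn2, a fibrillin of the developing microfibril, at 174 and 186 CPM in controls and 154, 125 and 112 CPM in mutants. Its log2 fold change was -0.47 ± 0.14 (SE; edgeR adjusted p 0.354).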

How the data were processed

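RNA-Seq was carried out on GFP-sorted cells of P6 mouse lung (2 control and 3 mutant libraries, paired-end reads). Per the labels and the methods, the authors used Trim Galore for trimming and Bowtie2 for alignment to the mouse build mm10, deposited raw counts per gene symbol from Bioconductor's GenomicAlignments package, and tested these with DESeq. Versions and the use of strand are not given in the sources used here. Groups were taken from the sample titles. The counts were tested with edgeR 4.0.16 (R 4.3.3): TMM factors, filterByExpr, a quasi-likelihood test of genotype over all 15298 genes that passed, two-sided, with Benjamini-Hochberg adjustment. DESeq2 1.42.0 was the alternative tool, with 3563 genes left without an adjusted p. CPM used TMM-scaled totals, and CPM per kb used union exon lengths from GENCODE M21, in which all 51 members were found. Values were named for members with an unadjusted p under 0.05, the highest member of each role, and members without overlap and a log2 fold change of at least 0.5. Timp3, Adamts7, Mmp17, Mmp9, Mmp15, Adamts15 and Adamtsl3 were chosen after their values were seen, as were members named by range. From the other lists, up to 5 genes with an unadjusted p under 0.05 were named. The members and lists were chosen with earlier results of these data known. The edgeR step was tested on simulated data. An exact permutation test of 2 against 3 libraries cannot go below p = 0.1 and was not used.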

Additional observations from a re-analysis of the deposited data

How the results depend on the processing

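Over all genes, edgeR called 0 at an adjusted p under 0.05, DESeq2 called 200, and edgeR with the replicate number as a block called 136, while leaving out 1 library at a time gave 0 to 45. No member was called by any of these. Mutant 3 has a replicate number of its own, so that in the block fit it adds nothing to the genotype difference. The replicate numbers were shared by 2 pairs of libraries only, whose deviations from the group means correlated at 0.21 and 0.12. With 2 controls the deviations of the controls mirror each other, so that these correlations are not separate checks. Control 2 and mutant 3, which share no number, also correlated at 0.12. The values cannot decide whether libraries were paired, and the block was not taken as a pairing. Leaving out 1 library moved the members at an unadjusted p under 0.05 from 3 lower to between 1 and 11 and from 2 higher to between 0 and 2, those that met the study's form of criterion from 4 to between 1 and 9, and the partner genes from 6 to between 2 and 15. Over all 41 tested members and the alternatives, 534 of 572 fold changes kept their direction and 38, in 17 members, turned, 11 of them without control 1, among which Mmp13 went from -0.31 to 0.72, Adamts14 from -0.29 to 0.00047, Adamts8 to 0.038, Adamts4 to 0.017 and Mmp23 from 0.18 to -0.05. Timp2 turned to 0.012 with library totals, and Adamts17 to -0.0046 with the replicate block. Over the left-out libraries the log2 fold change ranged from -0.029 to 0.056 for Adamts17, from -0.11 to 0.16 for Mmp14, from -2.23 to 0.055 for Mmp8, from -0.30 to 0.24 for Mmp15 and from -0.66 to 0.17 for Adamts15. The summed ADAMTS-like level, mutant over control, ranged from 0.374 without control 2 to 0.857 without control 1. The cause of these shifts was not tested. Control 1 lay farther from the mutants than control 2 for 29 of 41 members, a share that was not computed over all genes. Over all 15298 genes control 1 was the highest library for 4037 and the lowest for 4292, more than any other library. The count may therefore describe the library and not the family. With 2 controls, differences such as those of Adamts10 or Adamtsl4 could not be told from the spread. The widest intervals were those of Mmp8, with 29 to 243 counts per library, and Mmp13, with 5 to 15.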
